A study of Drosophila melanogaster with 2 samples.

Results

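Tet, sbb, Tlk, kirre, CG43658, Ptp61F, CG1677 and mtgo are 8 long protein-coding genes of Drosophila melanogaster, selected on the number of CG3032-eGFP binding summits inside them. They are 8 of 13945 protein-coding genes on the chromosomes other than Y, and they held 182 of the 8170 summits of the replicate-filtered peak list. The samples were whole prepupae aged 24 hours, pooled males and females, from a transgenic line that stably expresses CG3032 with GFP fused to its C-terminus. ChIP-seq, which sequences the DNA that an antibody pulls down with a protein, was done with an anti-GFP antibody on fragments of 200 to 800 bp, in 2 biological replicates that the labels number 2 and 3. There was 1 group, 1 transgenic line and no other condition, and whole animals mix all tissues. The control library was not analysed here. A summit is the base of highest signal in a peak, and its signal is the authors' own value, in units that no label or header defines. The list from which most values below come was thresholded on the irreproducible discovery rate (IDR), a measure of how well peak ranks repeat between replicates. Because the summit counts chose the genes, all counts, densities and signals below are descriptions, and no test was made on them.

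In Drosophila, long genes usually owe their length to a few long introns, which can hold alternative promoters, enhancers and entire other genes. A protein that binds inside such an intron can therefore lie close to a start site of the long gene, close to a nested gene, or far from any start site. Tet encodes the fly member of the TET family of dioxygenases. sbb, also called brakeless, encodes a nuclear transcriptional co-repressor, and Tlk the Tousled-like kinase, which phosphorylates the histone chaperone Asf1. kirre encodes an immunoglobulin-family adhesion receptor of muscle founder cells that takes part in myoblast fusion. Ptp61F encodes a non-receptor tyrosine phosphatase related to mammalian PTP1B, and mtgo a protein with fibronectin type III repeats. CG43658 and CG1677 are known here by their annotation symbols only.

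The DNA under the strongest summit of 7 of these genes, and under a pair of further summits that come up below, is shown to let the bases be read beside the values below. Each line gives 101 bases centred on the summit (dm6, plus strand, from the RefSeq genome). Capitals mark the letters TATAAA and any of the 5 words of 8 bases that were most enriched at the other IDR summits, on either strand; a line without capitals holds none of them.
Tet, chr3L:2824174-2824274: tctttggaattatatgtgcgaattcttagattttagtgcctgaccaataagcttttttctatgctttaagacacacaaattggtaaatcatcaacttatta
Tlk, chrX:3742169-3742269: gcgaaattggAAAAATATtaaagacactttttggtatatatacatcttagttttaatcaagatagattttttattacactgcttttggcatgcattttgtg
kirre, chrX:3046123-3046223: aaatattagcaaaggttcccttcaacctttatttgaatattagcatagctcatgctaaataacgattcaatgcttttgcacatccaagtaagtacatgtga
CG43658, chrX:17531568-17531668: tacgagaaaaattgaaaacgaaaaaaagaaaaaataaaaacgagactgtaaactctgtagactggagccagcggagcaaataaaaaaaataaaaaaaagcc
Ptp61F, chr3L:1392152-1392252: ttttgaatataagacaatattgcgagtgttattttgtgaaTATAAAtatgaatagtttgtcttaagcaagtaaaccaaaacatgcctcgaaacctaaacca
CG1677, near Dok, chrX:7324984-7325084: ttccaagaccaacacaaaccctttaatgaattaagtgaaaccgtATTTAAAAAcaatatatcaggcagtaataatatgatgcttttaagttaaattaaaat
mtgo, chr2L:16597873-16597973: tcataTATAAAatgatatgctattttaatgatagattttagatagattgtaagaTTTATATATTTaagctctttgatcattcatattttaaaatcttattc
CG1677, near brk, chrX:7307170-7307270: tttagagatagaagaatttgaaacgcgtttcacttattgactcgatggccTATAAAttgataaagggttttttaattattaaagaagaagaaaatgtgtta
Tlk, in the miRNA gene mir-4962, chrX:3777384-3777484: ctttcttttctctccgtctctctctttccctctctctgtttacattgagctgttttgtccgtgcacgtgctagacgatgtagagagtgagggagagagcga
The sequences at the strongest summits were between 67.3% (kirre) and 82.2% (mtgo) A+T. The summit in mir-4962, a weak one with a signal of 196, was 51.5% A+T.

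The 8 genes held 182 IDR summits in 1.12 Mb, which is 2.23% of all IDR summits in 0.834% of the sequence of the chromosome arms. The density was 1.63 summits per 10 kb in the 8 genes and 0.610 over the arms. kirre, at 394 kb the longest of them, held 34 summits, Tet 29, sbb 23, CG43658 22, CG1677 22, Tlk 19, mtgo 17 and Ptp61F 16. Relative to length the order was different. Tet (3L:2786207 to 2879158, minus strand) had 3.12 summits per 10 kb, sbb (2R:18278198 to 18357296, minus) 2.91, Tlk (X:3720007 to 3789770, plus) 2.72 and CG43658 (X:17456169 to 17561180, minus) 2.09. Below these came CG1677 (X:7281089 to 7405797, minus) with 1.76 per 10 kb, mtgo (2L:16545016 to 16663218, plus) with 1.44, Ptp61F (3L:1342493 to 1475257, minus) with 1.21 and kirre (X:2740384 to 3134532, plus) with 0.863. Of all protein-coding genes, 15.6% held at least 1 IDR summit, and of the 176 at least as long as Tlk, the shortest of the 8 at 69.8 kb, 67.0% did.

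The 8 genes held a median of 22 IDR summits and a median of 1.93 per 10 kb, against medians of 2.5 summits and 0.237 per 10 kb in the other 168 protein-coding genes of at least 69.8 kb. Of these 168 genes, 58 held no IDR summit, and 44 of the 168 held none even among the 30000 peaks called on both replicates together. Genes without summits lower both medians. Whether reads can be placed along these genes was not examined. Among all 176, 12 held 16 or more summits (6.82%), and 8 of these 12 are the selected genes, as their choice fixes. The other 4 were Snoo with 22 summits, SKIP with 17, fz with 16 and CG32816 with 16, so the selected genes do not include every long gene at this level. The shorter genes shn (58.3 kb, 22 summits) and ush (64.3 kb, 16 summits), named after their values were seen, also reached it. The next lower count, 15 summits, was found in 6 genes.

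**Figure D1:**
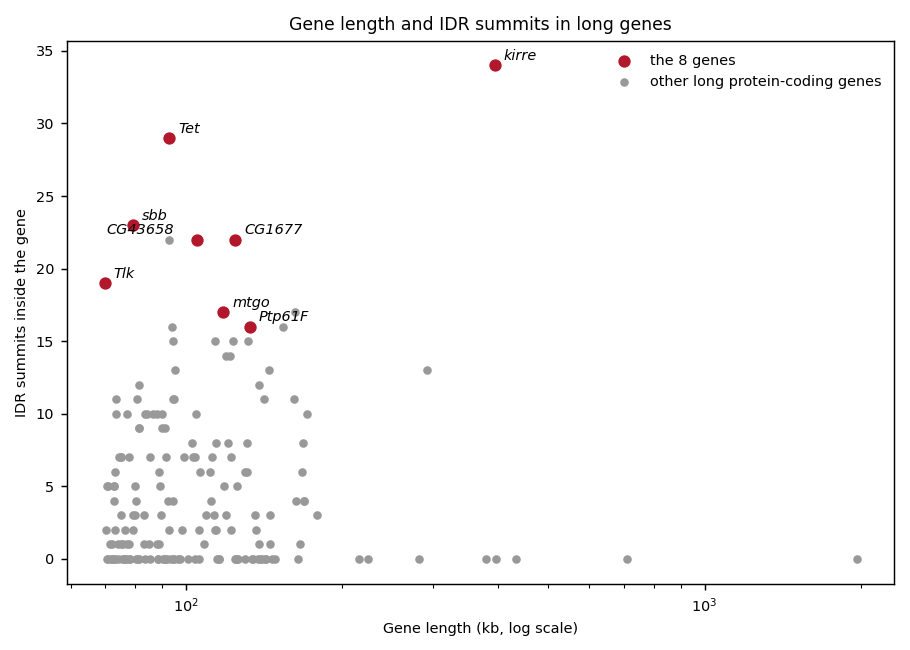
Number of IDR summits inside each of the 176 protein-coding genes of at least 69.8 kb against gene length in kb (log axis); each point is a gene, the 8 genes in red and the other 168 in grey. The 8 genes lie between 16 and 34 summits and the other genes between 0 and 22, so the ranges overlap. The high counts of the 8 genes are fixed by their choice. The longest genes of all are among those with 0 summits. Whether reads can be placed along the genes with 0 summits was not examined.

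The replicates gave unequal numbers of summits for some genes in their full lists, and for part of these genes also among the strongest peaks. Each replicate list holds 30000 peaks. Among these, Tet had 50 summits in replicate 2 and 83 in replicate 3, sbb had 52 and 69, and Tlk had 33 and 48. kirre had 118 in replicate 2 and 109 in replicate 3, CG43658 59 and 66, Ptp61F 45 and 43, CG1677 49 and 48, and mtgo 47 and 52. Tet, sbb and Tlk, the 3 genes with the highest IDR density, thus differed most between the full replicate lists, while the remaining 5 differed by at most 9 summits. When each list was restricted to its 8170 strongest peaks, the 8 genes together held 165 summits in replicate 2 and 180 in replicate 3, and 6 of the 8 held more in replicate 3. The gap at Tet narrowed to 26 in replicate 2 and 28 in replicate 3. At Tlk the counts were still unequal, at 15 and 21, and at sbb they were 19 and 24. The whole-series list, called on both replicates together, held 545 summits in the 8 genes, and 33.4% of these were in the IDR list, compared with 27.2% over all peaks of that list. The genes were chosen on summit counts, so this difference is not a separate result.

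**Figure D2:**
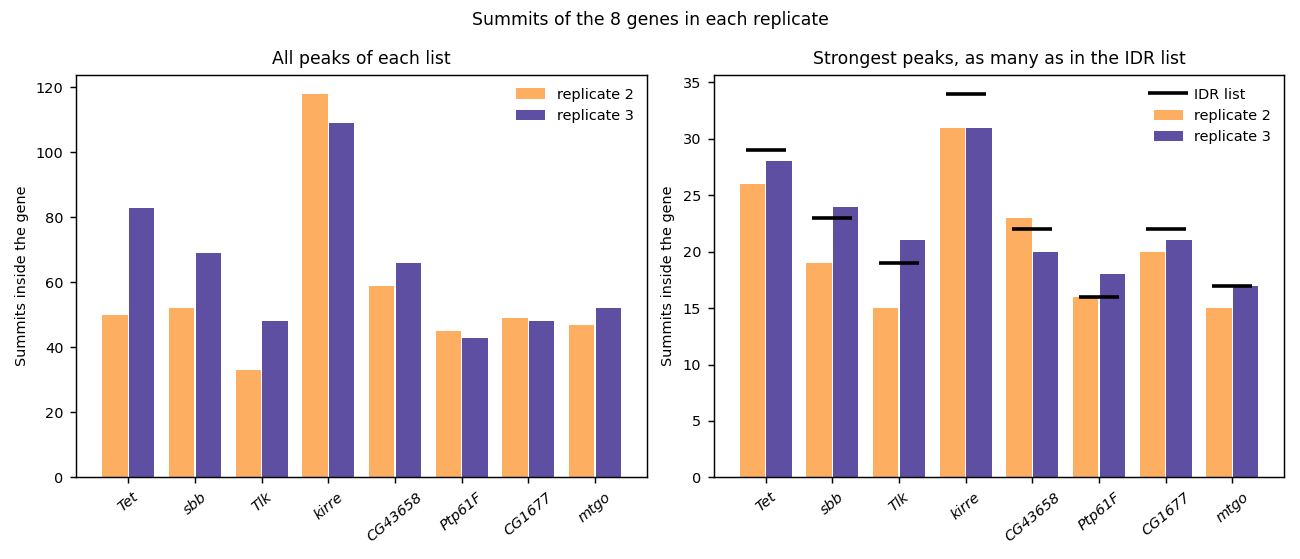
Number of summits inside each of the 8 genes in replicate 2 (orange) and replicate 3 (violet), over all 30000 peaks of each list on the left and over the 8170 strongest of each on the right, where black lines mark the IDR list. With 50 against 83 summits, Tet shows the widest gap on the left, and kirre has 31 in both replicates on the right.

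Of the 182 IDR summits, 173 (95.1%) had a summit within 100 bp in both full replicate lists, 175 in replicate 2 and 180 in replicate 3. Since the replicate lists entered the making of the IDR list, this share is partly built in. Of the 9 summits not matched in both, 3 were in Tlk, 2 in Tet, 2 in CG43658, 1 in Ptp61F and 1 in CG1677. Across the 173 matched summits the signals of the replicates had a Spearman's rho of 0.815, a description over summits that share their 2 libraries and, within a gene, their locus. The strongest summit of the 8 genes, in intron 5 of Tet, ranked 88 in replicate 2 and 74 in replicate 3. Single summits still moved far in rank. The summit nearest to brk ranked 101 in replicate 2 and 613 in replicate 3. In the other direction, a summit in intron 9 of Tlk (X:3778437) ranked 9420 in replicate 2 and 1488 in replicate 3.

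**Figure D3:**
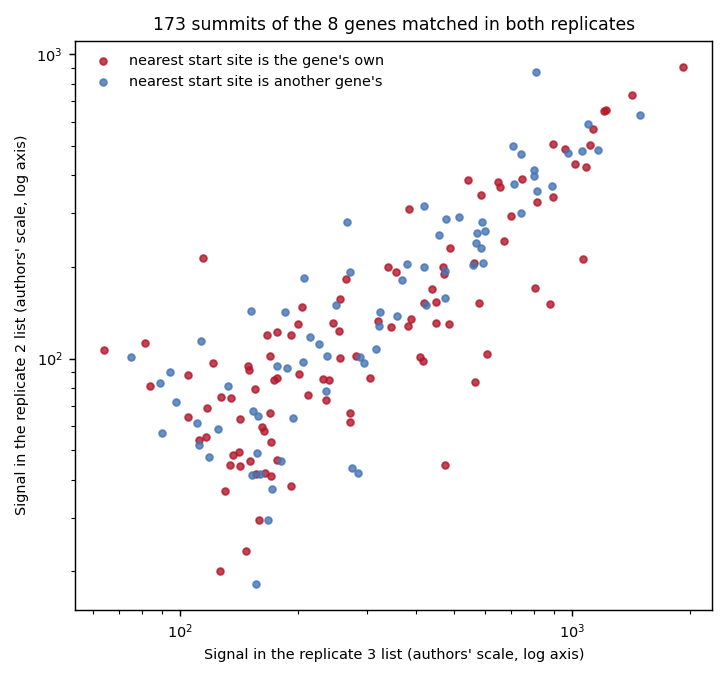
Signal of the 173 IDR summits of the 8 genes that were matched within 100 bp in both replicates, replicate 2 on the vertical and replicate 3 on the horizontal axis (both log axes, each on the scale of its own list); red points are closest to a start site of the gene itself and blue points to a start site of another gene. Both colours span most of the range, and the points follow one band with a Spearman's rho of 0.815.

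Almost all of the summits were intronic. Introns, meaning sequence outside the exons of every transcript of the gene, held 178 of the 182 summits (97.8%) and made up 93.0% of the length of the 8 genes. The 4 exonic summits were 2 in Tlk (X:3720425 and X:3776384), 1 in sbb (2R:18356032) and 1 in kirre (X:3134497). Exons thus held 2.20% of the IDR summits in the 8 genes (4 summits), against 3.50% in the other 168 long genes (25 summits). The exon share of the length was not computed for the 168 genes, so these shares do not compare summits per base. Long introns held most of the 182 summits. The 27 introns of at least 10 kb contained 151 (83.0%), close to their 85.5% share of the length. Of these 27 introns, 25 had at least 1 summit. Of 55 introns under 1 kb, 3 had one. These short introns make up little of the length, so this count does not mean fewer summits per base.

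Within the genes, a few introns carried most of the summits. Intron 2 of CG1677 (72.5 kb) held 21 of the 22 summits of that gene, at 2.90 per 10 kb, while intron 1 (46.5 kb) held 1, at 0.215 per 10 kb. Intron 1 of sbb (49.4 kb) held 16 of 23 and intron 4 of Ptp61F (74.2 kb) 11 of 16. In Tet, intron 5 (30.5 kb) held 15 of 29 summits, at 4.93 per 10 kb, and intron 6 (23.4 kb) held 7. In kirre, intron 9 (70.6 kb) held 17 of 34 summits at 2.41 per 10 kb, whereas the longer introns 3 (122 kb) and 4 (105 kb) held 5 and 3, at 0.411 and 0.284 per 10 kb. Intron 2 of mtgo (41.9 kb) held 8 of 17 summits. CG43658 and Tlk had smaller shares of their summits in any 1 intron. The largest number in CG43658 was 8 of 22 (intron 5, 24.0 kb). The 17 intronic summits of Tlk were spread over 8 introns with 1 to 4 each. Their density was not even, at 14.4 per 10 kb in the short intron 9 of Tlk (2.78 kb, 4 summits) and 0.666 in intron 3 (15.0 kb). Intron 7 of Tlk (9.78 kb) held 0.

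**Figure D4:**
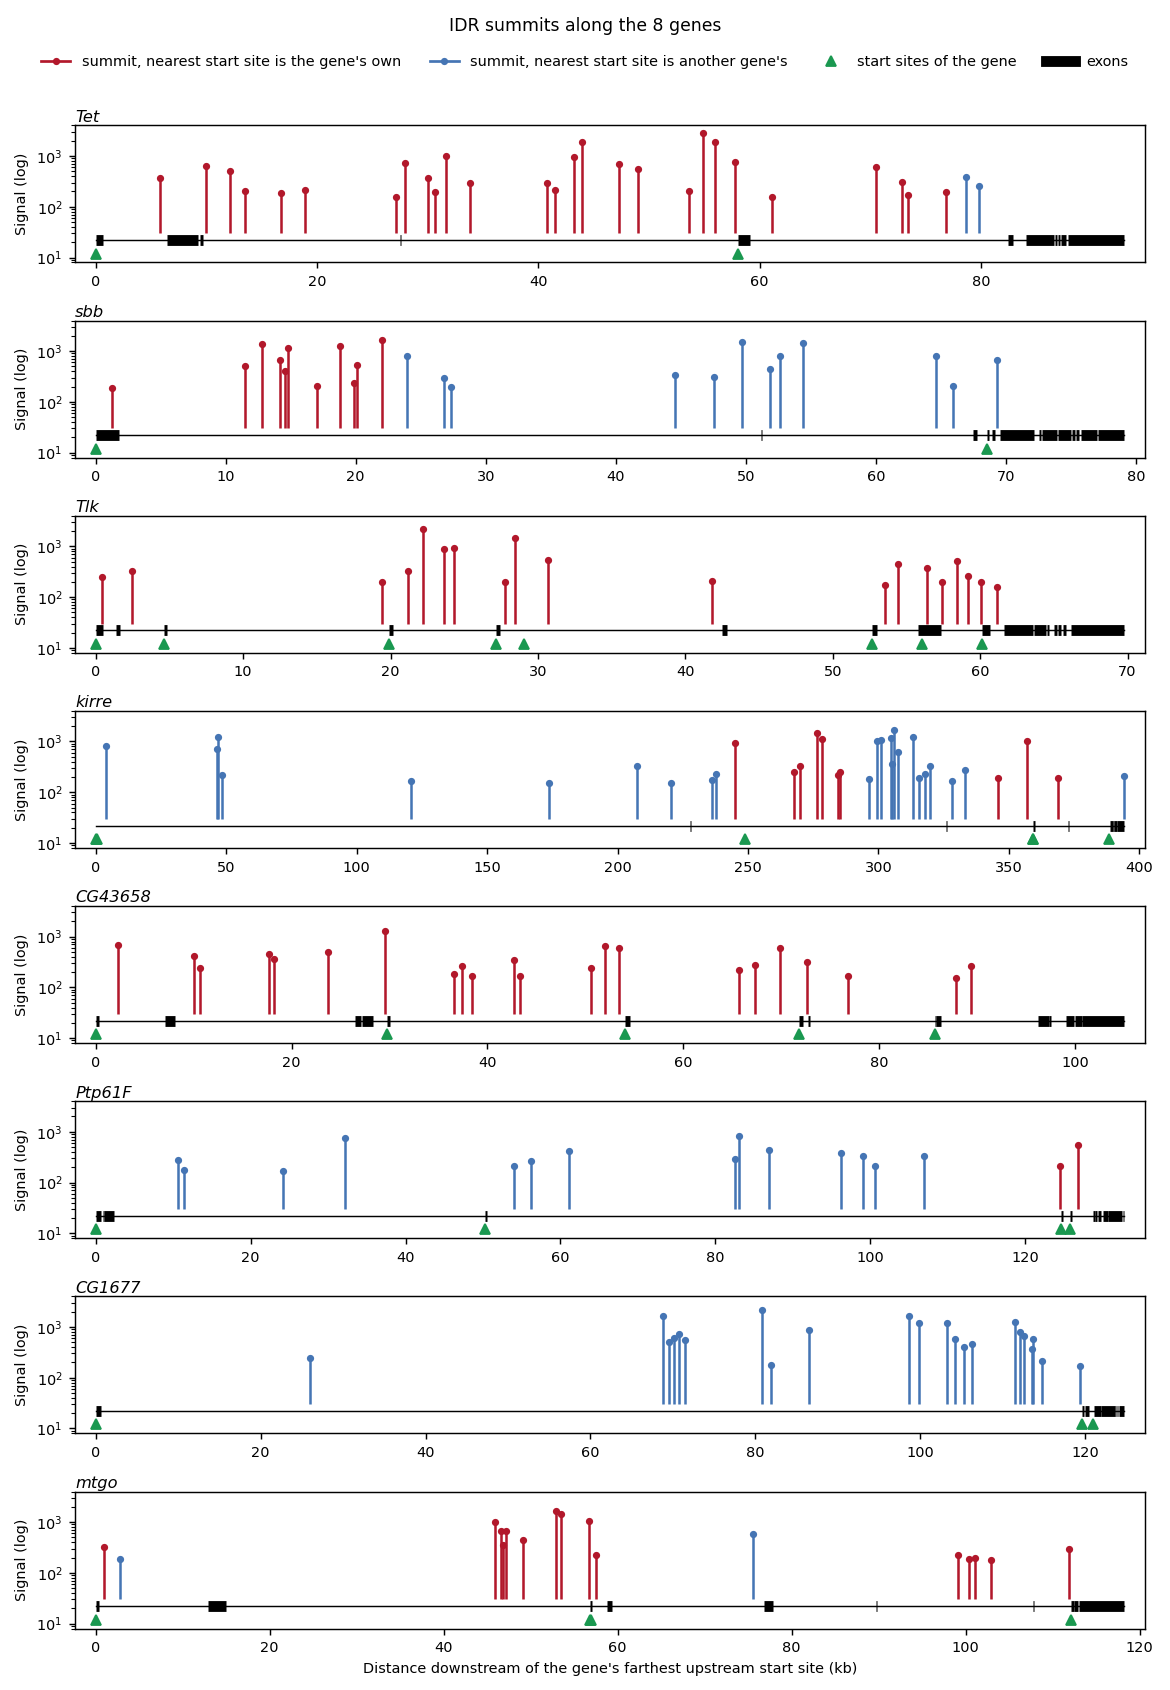
IDR summits along each of the 8 genes, by distance in kb downstream of the farthest upstream start site of the gene (horizontal axis, its own scale for each gene) and by the authors' signal (vertical axis, log scale); black blocks are exons of any transcript, green triangles start sites, red stems summits nearest to a start site of the gene itself and blue stems summits nearest to a start site of another protein-coding gene. Red prevails in Tet, Tlk, CG43658 and mtgo and blue in Ptp61F and kirre, all 22 stems of CG1677 are blue, and sbb is divided, with 11 of 23 red.

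Neighbouring summits of the same gene were a median of 2099 bp apart over 174 gaps (range 199 to 72467 bp), and 41 gaps (23.6%) were under 1 kb. The median gap was 1007 bp in CG1677, 1263 in Tlk, 1824 in mtgo, 1842 in sbb, 1912 in Tet, 2753 in CG43658, 4793 in Ptp61F and 5556 in kirre. If the summits of each gene had been evenly spaced, the gap would have been 5422 bp in CG1677, 6567 in mtgo, 3296 in sbb and 3488 in Tlk. It would have been 3098 bp in Tet, 4566 in CG43658, 7810 in Ptp61F and 11261 in kirre. The median gap was below this value in every gene. Irregular placement alone can give this, and clustering was not tested. In mtgo, 9 of the 17 summits fell within 9.82% of the gene's length, in CG1677 11 of 22 within 11.9%, and in kirre 17 of 34 within 13.3%. The share was 18.4% for 12 of 23 in sbb, 31.0% for 15 of 29 in Tet and 31.6% for 8 of 16 in Ptp61F. It was 31.7% for 11 of 22 in CG43658 and 43.4% for 10 of 19 in Tlk. The densest 10 kb held 9 summits in sbb, 8 in Tlk, 8 in CG1677, 7 in mtgo, 6 in Tet, 6 in kirre, 5 in CG43658 and 3 in Ptp61F. The median over the 8 genes was 6.5, against 2 in the other 168 long genes, in which the highest value was 7. This contrast follows from the choice of the genes on summit counts, and 58 of the 168 held no IDR summit.

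Runs of at least 4 summits with gaps of at most 2 kb numbered 12. The longest run was in Tlk, with 8 summits over 7610 bp (X:3773520 to 3781129) and signals from 161 to 513. sbb had a run of 6 over 6919 bp (2R:18333371 to 18340289) followed by one of 5 over 3304 bp, both in intron 1, with signals up to 1636. CG1677 had runs of 6 summits (X:7291085 to 7294348), 4 summits (X:7299526 to 7302520) and 5 summits (X:7334291 to 7337061), all in intron 2. Tet had 2 runs of 4 in intron 5, and mtgo a run of 5 in intron 2 and a weaker run of 4 in intron 6, where signals lay between 175 and 229. CG43658 and Ptp61F had none.

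The summits were strong for this list. Their median signal was 367, against 301 over all 8170 IDR peaks, 107 of the 182 (58.8%) were above the median of the list, and 35 (19.2%) were among the 1000 strongest, which make up 12.2% of the list. CG1677 had the highest median signal (597), followed by sbb (538), Tet (370), mtgo (347), Tlk (322), Ptp61F (311), kirre (297) and CG43658 (294). The medians of kirre and CG43658 were below the median of the list. In CG1677 18 of 22 summits were in the stronger 4085 peaks of the list, and in sbb 17 of 23. The count was 16 of 29 in Tet, 10 of 17 in mtgo and 10 of 19 in Tlk. It was 17 of 34 in kirre, 11 of 22 in CG43658 and 8 of 16 in Ptp61F. Without transcripts from the farthest upstream start site of each gene, the median signal was 270, below the 301 of the list. The strongest single summit was at 3L:2824224 in intron 5 of Tet, with a signal of 2838, and it ranked 72 of 8170. Next came Tlk at X:3742219 (2150, intron 4), CG1677 at X:7325034 (2134, intron 2), Tet at 3L:2823173 (1877, intron 5) and 3L:2835196 (1852, intron 5), mtgo at 2L:16597923 (1689, intron 2), CG1677 at X:7307220 (1675, intron 2), kirre at X:3046173 (1662, intron 9), CG1677 at X:7337061 (1643, intron 2) and sbb at 2R:18335252 (1636, intron 1). The maximum was 1274 in CG43658 and 813 in Ptp61F, so Ptp61F was the only gene of the 8 with no summit among the 1000 strongest.

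Few of the summits inside the genes lay at alternative promoters. Of the 182, 10 (5.49%) lay within 500 bp of a start site of the gene that holds them, compared with 9.51% in the other 168 long genes. The part of the gene length within 500 bp of a start site was not computed. These shares therefore do not show whether promoters held more or fewer summits per base than the rest of the genes. The median distance to the gene's nearest own start site was 12305 bp, and 129 summits (70.9%) were more than 5 kb from it. These 10 summits had a median signal of 271, against 370 for the other summits inside the genes. With the 3 own-start-site summits that lie just upstream of a gene added, the median was 378 over 13 summits (range 170 to 1664). Counting from the start sites, and with summits just upstream of the gene included, 14 of the 34 annotated start sites of the 8 genes (41.2%) had an IDR summit within 500 bp, against 24.8% of all 19252 protein-coding start sites. These 34 sites are not independent, since sites of 1 gene can lie close enough to share a summit.

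The genes differed in which of their promoters were marked. mtgo had an IDR summit at all 4 start sites, at −348 bp (signal 547) from the first, −76 and −162 bp (1 shared summit, 1030) from the middle pair and −208 bp (296) from the last; negative distances are upstream. CG43658 had strong summits at −214 bp (1664) from its first start site and −164 bp (1274) from the next, and none within 500 bp of its remaining 3. sbb had one at −144 bp (1359) from its first start site, and its other start site had none within 500 bp. In Tet the order was reversed: the downstream start site had a summit at −274 bp (751), and the first, with 4 of the 6 transcripts, had its closest IDR summit at −769 bp. In Tlk, 4 of 8 start sites had a summit, all with signals between 198 and 378. Ptp61F and CG1677 each had 1 weak summit, at −209 bp (214) and −184 bp (170). kirre, with the most summits of the 8 genes, had none within 500 bp of any of its 6 start sites, and the closest was 2344 bp away. In the whole-series list, which includes weaker peaks, 28 of the 34 start sites had a summit within 500 bp, among them 3 of kirre with signals of 54.7 and 92.2.

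The genes divided by what else lies inside them. Tet, Tlk, CG43658 and mtgo overlap 0 to 3 other protein-coding genes, and in these 4 genes 83 of 87 summits (95.4%) had one of the gene's own start sites as the nearest protein-coding start site. sbb, kirre, Ptp61F and CG1677 overlap 9 to 22 other protein-coding genes, and 23 of their 95 summits (24.2%) were nearest to a start site of the gene itself. By gene, the count was 11 of 23 in sbb, 10 of 34 in kirre, 2 of 16 in Ptp61F and 0 of 22 in CG1677. More overlapping genes bring more start sites of other genes, so the annotation alone can produce such a split. The share for other positions in the same genes was not computed. In the 4 genes rich in overlapping genes the summits were a median of 20952 bp from the closest own start site and 4493 bp from the closest start site of any protein-coding gene. Over all 8 genes the share nearest to an own start site was 58.2%, against 66.6% in the other 168 long genes, which overlap a median of 1 other protein-coding gene.

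In CG1677, 21 of the 22 summits lay in intron 2, among a row of nested genes, and the remaining one in intron 1. Of the 22, 7 were nearest to unc-119, 5 to brk, 4 to CBP, 2 to Atg5 and 1 each to Dok, CG2059, CG42780 and CheA7a. brk (X:7307939 to 7311132), which encodes a repressor of Dpp target genes, was chosen for description after its values were seen. Its 5 summits were all upstream of its start site, at distances from 7425 to 719 bp, and the 3 closest had signals of 1195, 1204 and 1675. None was within 500 bp. The calcium-binding protein gene CBP had a summit at 291 bp (X:7337061, 1643) and 3 more upstream of it within 2314 bp. The autophagy gene Atg5 and the docking protein gene Dok shared a weak summit between them (X:7323883, 181), 113 bp from the start of Atg5, and the strongest summit of CG1677 lay 820 bp inside Dok. unc-119 had a summit 213 bp downstream of its start, in an exon (X:7291085, 214), and stronger ones upstream of its start, the strongest of the run at 3050 bp (X:7294348, 1246). The summit 184 bp from a start site of CG1677 was 21 bp from that of CG2059, so it was counted for both.

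In kirre, 3 summits lay at promoters of other genes. One was 168 bp from the start of the syntaxin gene Syx4 (X:2744244, signal 817), one 176 bp from CG3603 (X:2947858, 324), and the exonic one, near the 3′ end of kirre, 373 bp from the start of the Notch receptor gene N (X:3134497, 207). In its dense intron 9 and in intron 10, 13 summits were nearest to the start of the small gene CG4116, but at distances from 907 to 30770 bp. rst, which lies inside kirre and encodes a related adhesion receptor, was nearest to 3 summits with signals from 152 to 231, none at its promoter. In Ptp61F, rho and ru, which encode intramembrane proteases that process EGF receptor ligands, were nearest to 3 and 4 summits. A summit lay 21 bp from the start of rho (3L:1463790, 176), and 3 of the 4 at ru were inside that gene. In sbb, 3 summits were nearest to CG14502, 1 of them 347 bp from its start (2R:18292680, 806), 4 to CG14505 and 5 to Tango8. In all, 10 of the 182 summits lay within 500 bp of the start of another protein-coding gene, 15 lay inside another protein-coding gene and 4 in an exon of one. Tlk overlaps no other protein-coding gene, but a summit in its intron 9 (X:3777434) lay inside mir-4962 (X:3777382 to 3777505); it had a match within 100 bp in replicate 3 (rank 4266) and none in replicate 2. A summit in a shared region cannot be given to the long gene or to the nested gene from these data.

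Of the 182 summits, 89 (48.9%) lay in sequence that belongs to the gene only through transcripts from its farthest upstream start site, a split made after the data were seen. Without those transcripts CG1677 would span 5.11 kb in place of 125 kb and hold 0 of its 22 summits, and its long form rests on 1 transcript. sbb would keep 1 of 23 summits in 9.70 kb, but 5 of its transcripts begin at the upstream site. Tet would keep 7 of 29 in 34.9 kb, with 4 transcripts from the upstream site, and mtgo 7 of 17 in 61.4 kb, with 1. The remaining genes changed less: CG43658 would keep 15 of 22, Ptp61F 12 of 16, Tlk 17 of 19 and kirre all 34.

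Relatives and partners of these genes were also examined. In a list of 17 genes made up of kirre's immunoglobulin-family relatives, the fly tyrosine phosphatases and partners of Ptp61F and Tlk, 10 held an IDR summit inside, beside 15.6% of all protein-coding genes, and 7 had one within 500 bp of a start site, beside 27.0% of all protein-coding genes. These percentages are not matched for length, and the 17 genes range from 1.51 to 145 kb. The median was 1 summit per gene. The most were 8, in the receptor phosphatase gene Ptp10D (55.3 kb, strongest 1736) and in InR, the insulin receptor gene and a substrate of Ptp61F (49.1 kb, strongest 919). Ptp4E had a promoter summit of 1429 and the phosphatase gene csw one of 903. The receptor phosphatase gene Lar, longer than Ptp61F at 145 kb, held 1 summit, and Ptp99A, at 109 kb, held 3. The adhesion receptor genes rst, hbs and sns held 1 each, and the histone chaperone gene asf1, the Janus kinase gene hop and the adaptor gene dock held none.

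Of the 182 summits, 164 (90.1%) were more than 500 bp from every protein-coding start site, against 4938 of the 7988 other IDR summits (61.8%). Their base composition was nevertheless close to that of the other summits. The windows that reach 100 bp to either side of each summit had a mean G+C content of 34.4% ± 6.77 (SD over 182 summits) in the 8 genes and 34.4% ± 7.62 over the other 7988. Windows 500 bp to the sides averaged 41.3% in the 8 genes and 43.9% at the other summits. The summit window was below its own flanks at 138 of 182 summits (75.8%), against 82.4% of the others. By gene, the mean was 30.7% in mtgo, 33.0% in CG1677, 33.1% in kirre, 33.2% in CG43658, 35.1% in Tet, 35.5% in sbb, 37.4% in Tlk and 38.2% in Ptp61F, and in kirre 33 of 34 summits were below their flanks, whereas in Tlk 11 of 19 were. Summits of 1 gene share their locus, so no test was made over them.

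**Figure D5:**
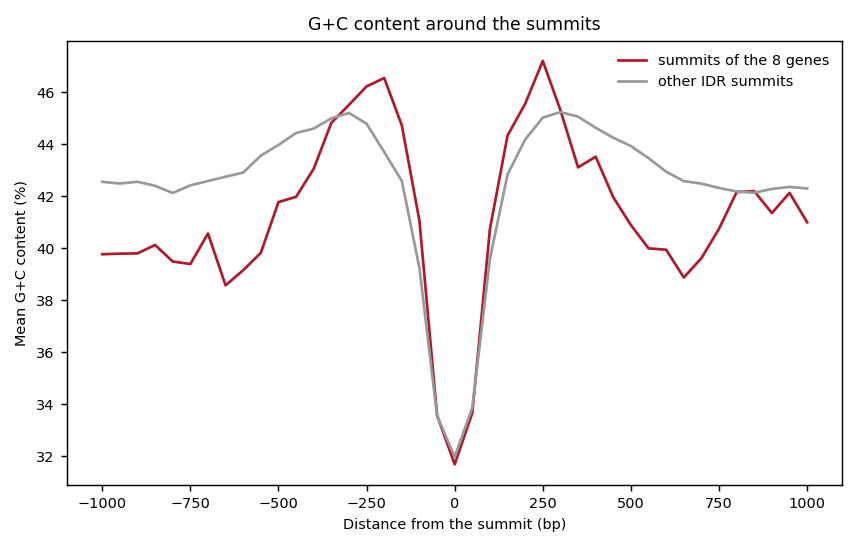
Mean G+C content in percent, in windows of 51 bp, by distance from the summit in bp, for the 182 summits of the 8 genes (red) and the 7988 other IDR summits (grey). Both curves have a narrow minimum at the summit, 31.7% in the 8 genes and 32.0% at the others, and rise on both sides, to 47.2% in the 8 genes and 45.0% at the others at 250 bp downstream on the plus strand.

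Short A+T-rich words were counted at the summits. The letters TATAAA, on either strand, were within 100 bp of 39.0% of the summits in the 8 genes and 38.5% of the other IDR summits. In the windows beside the summits of the 8 genes the share was 22.3%, and in windows of the same length tiled along these genes it was 20.6%. The word AAAAATAT was present at 14.3% of the summits of the 8 genes, 14.2% of the other summits and 7.14% of the windows beside the summits of the 8 genes. The word ATTTAAAA was present in 12.1%, 12.5% and 3.57% of these sets, and AAATATAT in 15.4%, 12.3% and 4.12%. The word AAAATATA was present in 12.1%, 12.7% and 5.49%, and the word TTTAAAAA in 10.4%, 12.2% and 2.75%. These words were ranked on the 7988 other summits, with both strands counted, and they overlap each other in their letters, so their shares are not separate observations. TATAAA and 4 of the 5 words were found at summits of all 8 genes, and TTTAAAAA at summits of 5 genes. The letters GAGAG, bound by the GAGA factor, were in 17.0% of the summit windows of the 8 genes, in 21.0% of the others and in 22.3% of the windows beside the summits of the 8 genes. The E box letters CANNTG were in 56.0%, 56.7% and 58.0% of the same sets.

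A pair of core promoter motifs was rare. The DRE letters TATCGATA were found at 1 of the 182 summits (0.549%), against 2.85% of the other IDR summits, and the 1 case was the summit at the start sites of Ptp61F and CG9166 (3L:1350808). More than 500 bp from any protein-coding start site, the shares were 0 of 164 in the 8 genes and 21 of 4938 elsewhere. The Motif 1 letters GGTCACACT were found at 2 summits, both in intron 5 of CG43658 (X:17517854 and X:17518459), which is 1.10% against 1.41% of the other summits. More than 500 bp from any protein-coding start site, the shares were 2 of 164 (1.22%) in the 8 genes and 11 of 4938 (0.223%) elsewhere, and the 2 summits in CG43658 lie in the same intron. A match is a description of the letters and not evidence of a bound factor.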

How the data were processed

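The 4 narrowPeak lists were deposited on the dm6 assembly. Per the file headers, 1 list was called on each replicate with a control, the whole-series list on both replicates with a control, and the other 3 lists went into the IDR list. The aligner, the peak caller and the threshold of the IDR list are not stated in the sources used here. The signal of each peak was deposited by the authors on an undefined scale and was used only to describe or rank peaks within a list; its rank was compared between lists. The −log10 q-value deposited by the authors was at its ceiling at all 8170 IDR peaks and was not used further. Summit positions are the deposited start plus the deposited summit offset. Read depth is unknown.

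Genes, exons and start sites came from Ensembl BDGP6.54, release 115, which is on the sequence of dm6, and DNA from RefSeq. Coordinates are 1-based. Summits were placed by position, a promoter summit being within 500 bp of a start site and a match between lists within 100 bp. Words and motifs were counted in windows that reach 100 bp to either side of the summit. The placement steps were tested on simulated data, using Python 3.11.15, numpy 2.4.6 and pandas 2.3.3. The 8 genes, the list of relatives and the motifs were chosen with earlier results of these data known. Genes that are not among the 8 are named if they overlap one of the 8 and have a start site within 500 bp of one of its summits, if they are relatives, or if they are among the 5 other genes of at least 69.8 kb with the most summits; CG14505, CG4116, CG42780, CheA7a, N, Tango8, brk, ru, shn and ush were named after their values were seen. Alternatives were each replicate alone, the stronger 4085 peaks, merged summits, extended or shortened gene spans, other start-site windows, exon definitions and matching distances.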

Additional observations from a re-analysis of the deposited data

How the results depend on the processing

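Taken from the 8170 strongest peaks of 1 replicate alone, the 8 genes held 165 to 180 summits, a median of 1.79 to 1.88 per 10 kb, 4.85 to 5.56% at own start sites, 97.2 to 98.8% in introns, a median spacing of 2103 to 2307 bp and 92.2 to 93.3% with a match in both replicates. In this setting each summit matches itself in its own replicate, so the last share measures only the match to the other replicate. Signal was not compared in this way, because each list has its own scale. Among the stronger 4085 IDR peaks there were 107 summits, 1.24 per 10 kb, 3.74% at own start sites, 99.1% in introns, a spacing of 2305 bp, 100% matched and a median signal of 666; fewer and stronger peaks are this setting's construction. With genes extended by 500 bp, 6.99% were at own start sites, 95.7% in introns, and the median signal was 370, as it was (370) with summits under 500 bp apart merged. Start-site windows of 200 and 1000 bp gave 2.20% and 10.99%. Matching distances of 50 and 200 bp gave 81.9% and 97.8%. Without transcripts from the farthest upstream start site, a setting added after the data were seen, 93 summits lay in the shorter spans, with 1.30 per 10 kb, a spacing of 2442 bp, 92.5% matched and a median signal of 270. The count per gene stayed within 1.5 times its value for all 8 genes in each replicate alone, with merging and with extension, for 2 (sbb and CG1677) in the stronger peaks, and for 4 without those transcripts. The exon setting changed no share. No paired analysis was possible because there is 1 group. The number of summits depends on the fixed list lengths, and the unknown depth limits every count of weak peaks.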
